A study of Mus musculus with 6 samples.

Results

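Imprinted genes are transcribed mainly from either the maternal or the paternal copy, and 10 of them were followed in mouse embryonic stem (ES) cells with and without knockdown of Ep400. The maternally expressed genes were H19, Igf2r, Grb10 and Phlda2, and the paternally expressed genes were Igf2, Mest, Peg3, Dlk1, Snrpn and Plagl1. They were chosen by name, as every probe to which the platform annotation gives one of these symbols. Such probes existed for 8 of the 10 genes, 19 probes in all, and no probe carried the symbols H19 or Snrpn, which were therefore not analysed here. Of the 8 genes, 7 had a probe detected above background (detection p under 0.01) on at least 3 arrays, among 9736 genes measured in all, and each of the 7 was detected on all 6 arrays. Plagl1 had 3 probes and was detected on 0 of 6 arrays.

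The 6 Illumina bead arrays read total RNA from mouse ES cells grown on mitomycin C-inactivated fibroblasts, called feeder cells, in medium with serum and the cytokine LIF. The 3 control arrays came from cells whose transfection is labelled control, and the 3 shEp400 arrays from cells that received a shRNA against Ep400, the ATPase of the Tip60-p400 chromatin remodelling complex. All cells were electroporated with a pHYPER shRNA vector, selected with puromycin and collected, and the labels give no strain, no sex and no sequence for the control vector. The labels do not say whether the 3 samples of a group were separate cultures, and the p-values therefore cover no more than the spread of these samples, which may be technical.

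Genomic imprinting rests on DNA methylation that egg and sperm lay down differently at imprinting control regions, and that is kept on 1 parental copy through the cell divisions of the embryo. Paternally expressed genes such as Igf2 often promote growth of the fetus and placenta, while maternally expressed genes such as Igf2r, Phlda2, Grb10 and Cdkn1c often restrain it. Imprints are known to be lost at some loci in cultured ES cells. An array reads the RNA of both copies together, so the values below are summed levels and say nothing about which copy was active.

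The targeted gene Ep400 went from 9.62 ± 0.083 in control to 9.04 ± 0.142 in shEp400 cells on the normalized log2 scale (SD, n = 3 each), and so fell by 0.58 on that scale (limma adjusted p = 0.0159). Cyclic loess normalization ended that call (adjusted p = 0.0631), as did leaving out control replicate 1 (adjusted p = 0.0611). Between 15441 and 17337 probes were detected per array. The 6 arrays shared a slide on which each group held its own neighbouring positions. Group and slide position cannot be told apart. Markers of the feeder fibroblasts differed between the groups: 24 of 27 measured markers rose and 0 fell, of 34 listed. Over all genes, 20.6% rose and 23.1% fell at an adjusted p under 0.05. Among the rises, that of Col6a2 is set against detection on 1 of 3 control arrays. The summed normalized signal of the feeder markers was 13958 to 16093 on control arrays and 60542 to 93587 on shEp400 arrays. Of the defining markers, Col1a1 rose 7.64-fold (log2 change 2.93, or 2.24 without background correction and 2.25 in the deposited matrix) and Thy1 2.45-fold, Col1a2 had a log2 change of 0.55 (adjusted p = 0.054, but 0.0391 with array weights and 0.0317 without shEp400 replicate 1), and Col3a1 and Postn had no probe detected on 3 arrays. All 12 listed ES cell markers were measured, and 8 fell and 0 rose, against 23.1% and 20.6% of all genes. Pou5f1, Nanog, Zfp42 and Dppa5a did not pass, with log2 changes of -0.49, -0.30, -0.42 and -0.21. Klf4 passed (limma adjusted p = 0.0482), but its groups overlapped. The summed signal of the 12 was 75156 to 77256 in control and 48405 to 66689 in shEp400 cells. Dppa5a was the brightest of the 12. In bulk RNA, fewer cells of a type and less RNA per cell cannot be told apart.

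Of the 7 measured imprinted genes, 3 rose (Igf2, Igf2r and Dlk1), 1 fell (Phlda2) and 3 did not pass the test (Grb10, Mest and Peg3). Over all genes, 43.7% were called in either direction, 20.6% higher and 23.1% lower, so 4 called genes of 7 is a share near that of the transcriptome. Each parental class held at least 1 rise, and the difference between the classes was not tested. Among maternally expressed genes 1 of 3 rose and 1 fell, with a median log2 change of 0.38, and among paternally expressed genes 2 of 4 rose and 0 fell, with a median of 0.16. The median over all genes was -0.06. The shEp400 values all lay above control for 4 of the 7 genes and all below for 1, against 25.1% and 30.3% of all genes and 55.5% in either direction.

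**Figure D1:**
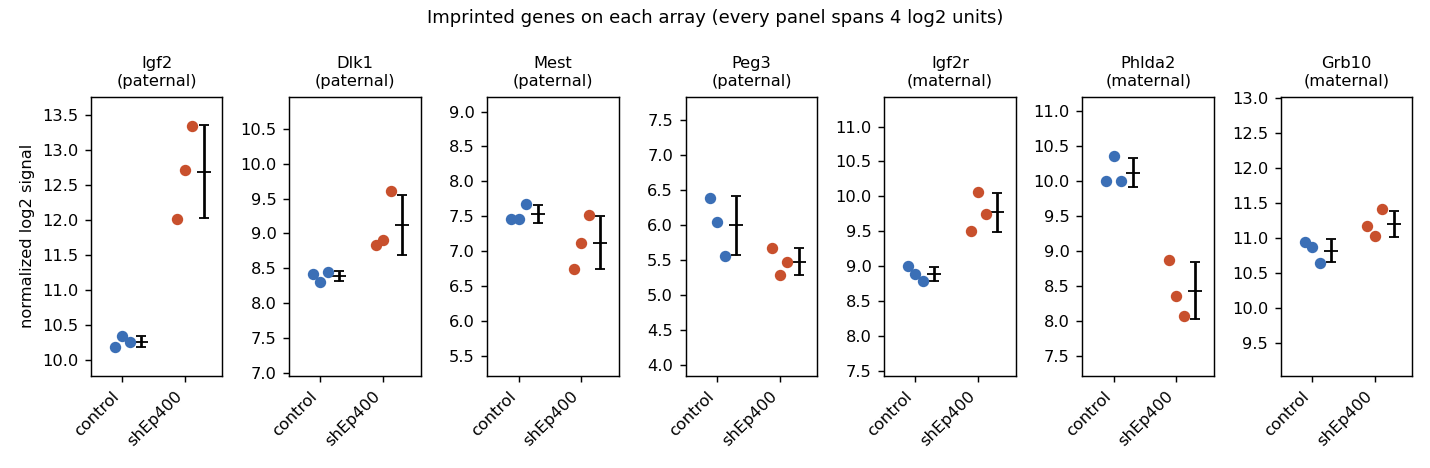
Normalized log2 signal of the 7 measured imprinted genes on each of the 6 arrays, with 3 control arrays in blue and 3 shEp400 arrays in orange; black bars are the mean and SD of each group, and every panel spans the same number of log2 units. The shEp400 values of Igf2 (12.02 to 13.35) lie well above control (10.18 to 10.34), those of Phlda2 lie below control, and those of Mest and Peg3 overlap with control.

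Igf2 encodes insulin-like growth factor 2, the main growth factor of the fetus, and is expressed from the paternal copy in most tissues. Control arrays gave deposited signals of 1022, 1305 and 1380, and shEp400 arrays gave 4121, 6169 and 12205. On the normalized log2 scale the control values were 10.18, 10.34 and 10.25 and the shEp400 values 12.02, 12.71 and 13.35. Every shEp400 array lay above every control array, and the shEp400 arrays were themselves spread over more than a log2 unit while the control arrays lay close together. Igf2 rose 5.39-fold, by 2.43 on the log2 scale with an SE of 0.29 (limma adjusted p = 0.000195) and ranked 85 among 9736 genes ordered from the largest rise. The value rests on the only probe with this symbol.

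The gene has several promoters, and a probe of this kind does not tell their transcripts apart. RefSeq (GRCm38.p6) gives 4 start sites, and the windows from 250 bases before to 50 bases after 2 of them are shown, those with the most and the fewest CG dinucleotides, the bases at which DNA methylation is placed, which are in capitals. The arrays measured no methylation.
Igf2, chr7:142658755-142659054, minus strand: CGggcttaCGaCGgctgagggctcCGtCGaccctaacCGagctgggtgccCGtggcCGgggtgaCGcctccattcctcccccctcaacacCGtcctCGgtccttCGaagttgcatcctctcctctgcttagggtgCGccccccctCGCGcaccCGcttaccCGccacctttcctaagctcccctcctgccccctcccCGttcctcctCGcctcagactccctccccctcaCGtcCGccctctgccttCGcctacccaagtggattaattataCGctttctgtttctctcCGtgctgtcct
Igf2, chr7:142666767-142667066, minus strand: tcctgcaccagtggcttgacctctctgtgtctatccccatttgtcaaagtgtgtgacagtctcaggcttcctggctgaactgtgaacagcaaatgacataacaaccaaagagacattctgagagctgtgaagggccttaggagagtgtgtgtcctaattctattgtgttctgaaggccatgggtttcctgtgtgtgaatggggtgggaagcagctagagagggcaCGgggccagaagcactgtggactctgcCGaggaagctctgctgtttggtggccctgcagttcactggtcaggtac
The first window holds 24 CG dinucleotides, more than 80.0% of all 32851 promoter windows, whose median count is 7. The other, which lies furthest upstream, holds 2, and the remaining Igf2 windows hold 7 and 14.

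Igf2r encodes the receptor that carries Igf2 to the lysosome for degradation, and the mouse gene is expressed from the maternal copy in most tissues. Its normalized log2 signals were 9.0, 8.89 and 8.79 in control and 9.51, 10.06 and 9.76 in shEp400 cells. All 3 shEp400 values lay above the controls, with shEp400 replicate 2 the highest. Igf2r rose 1.84-fold, by 0.88 on the log2 scale with an SE of 0.18 (limma adjusted p = 0.00395). A further probe gave a log2 change of 0.96 (SE 0.22, limma adjusted p = 0.00595 in the fit over 14238 probes, of which 41.3% were called). Its shEp400 values were 8.80, 9.37 and 9.60, so that replicate 3 was the highest and the order of arrays depends on the probe. The Igf2r promoter window is the richest in CG dinucleotides among those of Igf2, Igf2r, Dlk1 and Phlda2. It holds 34, more than 92.3% of all windows, and is shown for that contrast with Igf2.
Igf2r, chr17:12769657-12769956, minus strand: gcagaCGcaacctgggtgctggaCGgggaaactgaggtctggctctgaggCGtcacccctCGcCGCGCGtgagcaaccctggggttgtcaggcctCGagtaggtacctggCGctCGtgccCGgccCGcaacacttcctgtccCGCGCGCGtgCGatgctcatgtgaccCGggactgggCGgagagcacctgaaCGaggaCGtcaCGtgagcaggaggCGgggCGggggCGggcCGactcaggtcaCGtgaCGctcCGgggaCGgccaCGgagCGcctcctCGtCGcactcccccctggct
Igf2 moved further from control than Igf2r on each shEp400 array. The change of Igf2 exceeded that of Igf2r by 1.55 on the log2 scale (SE 0.35), and by 1.15, 1.28 and 2.22 on the 3 shEp400 arrays, each taken from the control mean of the difference. An exact two-sided permutation test gave p = 0.1, the smallest that 3 arrays against 3 allow. It was the first of 3 such pairs, all picked after their values were seen, and the adjusted p was 0.1 for each.

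Transcripts of 4 genes whose proteins bind Igf2 or its mRNA were measured, and all 4 passed the test, where 43.7% of all genes did. Of the 4, 2 rose and 2 fell, and the calls of Igf1r and Igf2bp3 did not hold under every setting. The receptor that transmits the Igf2 signal, Igf1r, rose 1.69-fold (limma adjusted p = 0.0045), and the insulin receptor Insr, which also binds Igf2, rose 1.69-fold (limma adjusted p = 0.0044). The rise of Igf1r rests on its brightest probe, since the mean of its probes gave a log2 change of 0.30 (adjusted p = 0.133). The mRNA-binding proteins Igf2bp1 and Igf2bp3, named for binding Igf2 mRNA, fell 1.74-fold and 1.45-fold (adjusted p = 0.0144 and 0.0318). The call of Igf2bp3 was lost with cyclic loess and when any single array other than shEp400 replicate 1 was left out. Igf2bp2 carried no named probe. By the summed absolute distance between arrays' differences from the control mean, the tested genes most like Igf2 over the 6 arrays were the chemokine Cxcl1 (distance 0.416), the cell cycle inhibitor Cdkn2b (0.490) and the complement protease Masp1 (0.512). Their log2 changes were 2.35, 2.29 and 2.36.

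Dlk1 encodes a transmembrane protein related to Notch ligands that keeps precursor cells, such as preadipocytes, undifferentiated, and it is expressed from the paternal copy. Its normalized log2 signals were 8.42, 8.31 and 8.45 in control and 8.84, 8.91 and 9.61 in shEp400 cells. The groups did not overlap, and shEp400 replicate 3 stood above the other two. Dlk1 rose 1.66-fold, by 0.73 on the log2 scale with an SE of 0.22 (limma adjusted p = 0.0219), and a further probe gave a log2 change of 0.59 (limma adjusted p = 0.0212 in the fit over probes). Leaving out control replicate 1 or 2 ended the call (adjusted p = 0.054 and 0.0677), with log2 changes of 0.74 and 0.68. Its promoter window, shown as the counterpart of Igf2 among the paternally expressed genes that rose, holds 9 CG dinucleotides.
Dlk1, chr12:109452573-109452872, plus strand: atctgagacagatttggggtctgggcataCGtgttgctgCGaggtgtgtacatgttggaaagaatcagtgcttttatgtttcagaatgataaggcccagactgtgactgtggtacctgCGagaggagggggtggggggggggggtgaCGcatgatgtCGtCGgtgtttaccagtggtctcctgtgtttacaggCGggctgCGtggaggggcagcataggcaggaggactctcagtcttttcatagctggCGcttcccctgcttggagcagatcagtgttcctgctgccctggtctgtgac

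Phlda2 encodes a small pleckstrin homology domain protein that limits growth of the placenta and is expressed from the maternal copy. Control arrays gave deposited signals of 903.5, 1315 and 1157, and shEp400 arrays gave 574, 401.4 and 461.9. The normalized log2 values were 9.999, 10.35 and 10.01 in control and 8.87, 8.36 and 8.06 in shEp400 cells, with no overlap. Phlda2 was 3.22-fold lower in shEp400 cells, a log2 change of -1.69 with an SE of 0.22 (limma adjusted p = 0.000362). It ranked 73 among 9736 genes ordered from the largest fall, and its change was larger in size than that of 95.2% of genes. The value rests on its only probe. Its promoter window, shown because Phlda2 alone of the 7 genes fell past the threshold, holds 26 CG dinucleotides.
Phlda2, chr7:143502475-143502774, minus strand: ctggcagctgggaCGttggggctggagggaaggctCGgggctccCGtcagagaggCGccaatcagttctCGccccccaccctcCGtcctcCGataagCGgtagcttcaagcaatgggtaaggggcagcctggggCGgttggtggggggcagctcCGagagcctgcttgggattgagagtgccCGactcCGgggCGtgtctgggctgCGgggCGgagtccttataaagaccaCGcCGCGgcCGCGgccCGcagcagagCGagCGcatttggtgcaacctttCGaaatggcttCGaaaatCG
The window holds the TATA-box letters TATAAA shortly before the start, which 13.6% of all windows hold on either strand.

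Grb10, Mest and Peg3 did not pass the test. Grb10, an adaptor that binds the insulin and IGF receptors and dampens their signal, had normalized log2 signals of 10.95, 10.87 and 10.64 in control and 11.16, 11.03 and 11.41 in shEp400 cells. The groups did not overlap, but the log2 change of 0.38 (SE 0.18) had a limma adjusted p = 0.103. Grb10 passed without background correction (adjusted p = 0.0389) and with cyclic loess (0.035). It also passed with the deposited matrix (0.0391), whose log2 change of 0.37 equalled that without background correction and is no separate check. A dimmer detected probe of Grb10 gave a log2 change of -0.03 (SE 0.22), and its remaining probe was detected on 0 arrays. Maternal expression of Grb10 holds outside neurons, where the paternal copy is used.

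Mest, a hydrolase-like protein of the mesoderm expressed from the paternal copy, had values of 7.46, 7.46 and 7.68 in control and 6.74, 7.12 and 7.51 in shEp400 cells. The log2 change was -0.41 (SE 0.21) with a limma adjusted p = 0.14. The groups overlapped, and its further probes gave log2 changes of -0.20 and 0.10, with no call. Without shEp400 replicate 3 the brightest probe passed (log2 change -0.61, adjusted p = 0.0286), and it passed with array weights as well (adjusted p = 0.0275). Peg3, a zinc finger protein of the paternal copy, had values of 6.40, 6.04 and 5.56 in control and 5.68, 5.29 and 5.47 in shEp400 cells. These overlap, and the log2 change was -0.52 (SE 0.23) with a limma adjusted p = 0.089. Its detected probe was dim, with deposited signals of 124.3 to 153.9, and its other 3 probes were detected on 0 arrays. The call appeared without control replicate 3 (adjusted p = 0.024) and with array weights (adjusted p = 0.0038).

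Plagl1, a zinc finger factor of the paternal copy that inhibits growth, had signals of 95.4 to 121 over its 3 probes and 6 arrays, none of them above background. No level or change is given for it. Snurf shares its mRNA with Snrpn, whose symbol no probe carried, and is named here after its values were seen. Its brightest probe had values of 13.10, 12.94 and 13.03 in control and 12.78, 12.59 and 12.37 in shEp400 cells. The groups did not overlap, but the log2 change of -0.45 (SE 0.17) did not pass (limma adjusted p = 0.0572), and the other two detected Snurf probes gave -0.43 and -0.57, with no call.

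**Figure D2:**
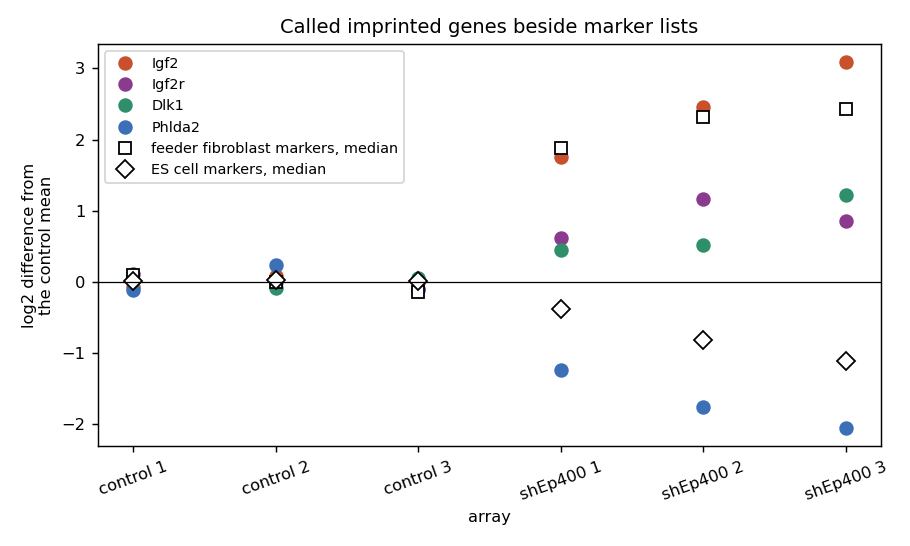
Log2 difference from the control mean on each of the 6 arrays for the 4 called imprinted genes (filled circles), with the median of the measured feeder fibroblast markers (open squares) and of the ES cell markers (open diamonds). On the shEp400 arrays the feeder medians are 1.88, 2.32 and 2.44 and Igf2 lies at 1.76, 2.45 and 3.09, while Phlda2 and the ES cell markers lie below 0.

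The called genes were also set beside the markers array by array. The feeder markers had median differences from the control mean of 1.88, 2.32 and 2.44 on shEp400 replicates 1, 2 and 3, and the ES cell markers -0.39, -0.82 and -1.12. On the same arrays Igf2 lay at 1.76, 2.45 and 3.09, Dlk1 at 0.45, 0.52 and 1.22, and Igf2r at 0.61, 1.17 and 0.86. The Igf2r values are those of its brightest probe, and its further probe was highest on replicate 3. Phlda2 lay at -1.25, -1.76 and -2.06. Embryonic fibroblasts are a known source of several imprinted transcripts, Igf2 among them. How far feeder RNA has a part in these changes was not tested. Of 15 listed extraembryonic endoderm markers 9 were measured, and Gata4, Foxa2, Afp, Cubn, Lamb1 and Ttr were not. Among the 9, 6 rose and 0 fell, where 20.6% of all genes rose and 23.1% fell. The rises were those of Gata6, Sox17, Dab2, Col4a1, Col4a2 and Sparc, with Sox17 detected on 1 of 3 control arrays. Sox7, Hnf4a and Amn had log2 changes of 0.63, -0.39 and -0.54, with no call. The summed signal of the 9 was 2354 to 2481 in control and 7816 to 8333 in shEp400 cells. Sparc, Col4a2 and Col4a1 were the brightest of the 9 in shEp400 cells and weigh most in that sum. Whether their RNA came from endoderm or from feeder cells was not tested. Trophectoderm is a lineage in which Phlda2 is active, and 6 of its 11 listed markers were measured. Cdx2, Eomes, Elf5, Gata3 and Hand1 were not. The keratins Krt8, Krt18 and Krt7 rose, Krt7 being detected on 1 of 3 control arrays. Tfap2c, the brightest of the 6, fell by 1.06 on the log2 scale. Tead4 and Ascl2 had log2 changes of -0.57 and -0.16, with no call. The summed signal of the 6 overlapped between the groups (1334 to 1763 in control and 1213 to 1557 in shEp400 cells).

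A wider list of 62 other imprinted genes, some of which are imprinted in certain tissues only was measured alongside. Of these, 57 had a named probe and 32 were measured. Among the 32, 11 rose, 3 fell and 18 did not pass. With the 7 genes above, 46.2% of the 39 measured imprinted genes were called, against 43.7% of all genes. Of the 39, 35.9% were higher, against 20.6% of all genes, and 10.3% lower, against 23.1%. The difference in direction was not tested. The median log2 change of the 39 was -0.03, and that of all genes -0.06. A gene silent in control is measured only if the shEp400 arrays detect it, so unmeasured genes are not counted. By parental class 9 of 24 maternally expressed genes rose and 2 fell, with a median log2 change of -0.03, and 5 of 15 paternally expressed genes rose and 2 fell, with a median of 0.10. The difference between the classes was not tested.

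**Figure D3:**
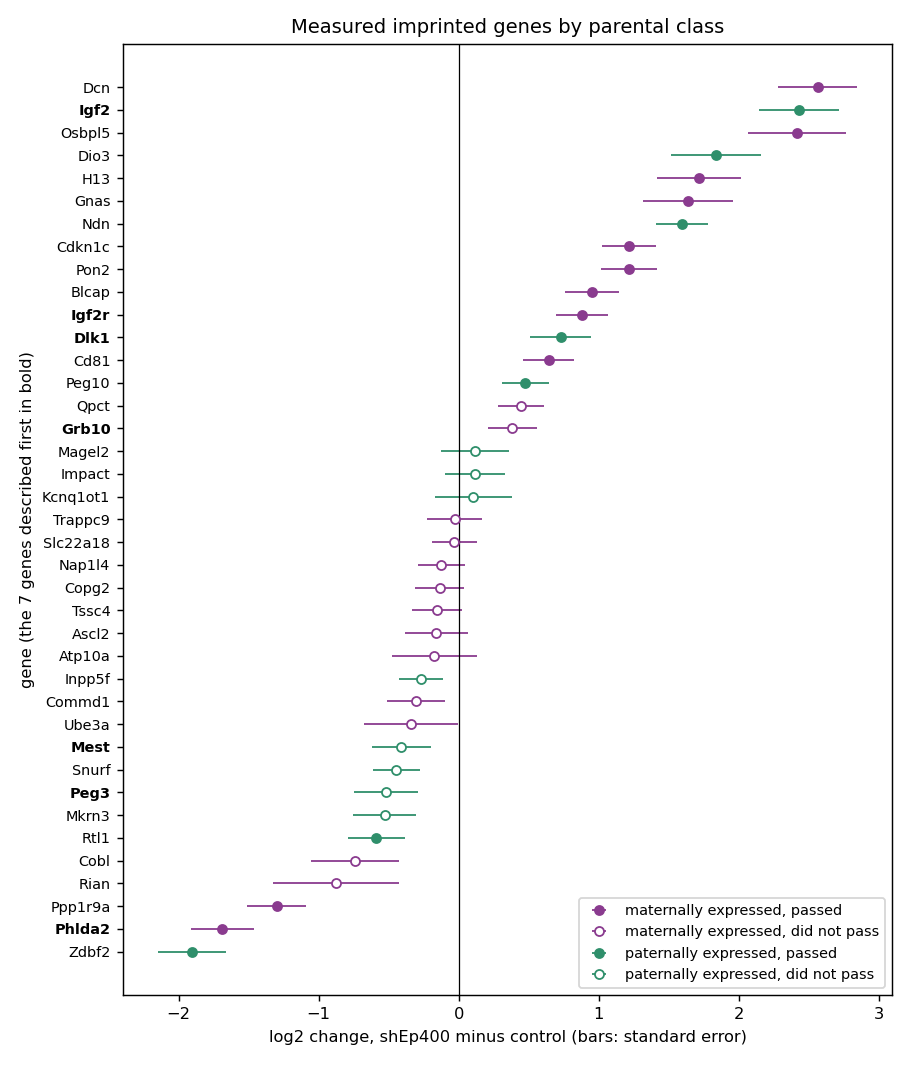
Log2 change (shEp400 minus control, with its standard error) of the 39 measured imprinted genes, ordered by size; purple marks maternally and green paternally expressed genes, filled points passed the test at adjusted p under 0.05, and the 7 genes described first are in bold. Both classes are found at both ends, with Dcn and Igf2 at the top and Phlda2 and Zdbf2 at the bottom.

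Rises of at least 2-fold, which 11.2% of all genes showed, were called for 8 of the 32 other imprinted genes, and falls of that size, shown by 6.69% of all genes, for 2. Dcn, the matrix proteoglycan decorin, which is imprinted in the placenta and made by fibroblasts, rose 5.91-fold, by 2.56 on the log2 scale with an SE of 0.28 (limma adjusted p = 0.000148). Its values were 8.98, 8.73 and 7.73 in control and 10.998, 11.12 and 11.01 in shEp400 cells, so that the controls were the more spread group. Osbpl5, a lipid transfer protein, is counted among the 8 but was detected on 1 of 3 control arrays, so that its fitted rise of 5.33-fold is set against a level mostly not above background. Its log2 change was 1.14 without background correction (from 2.41) and 1.15 with the deposited matrix. Dio3, the deiodinase that inactivates thyroid hormone, rose 3.57-fold, and its log2 change was 1.24 (from 1.84) both in the deposited matrix and without background correction. H13, a signal peptide peptidase, rose 3.29-fold by its brightest probe, with a log2 change of 1.04 (from 1.72) for the mean of its probes. Gnas, the stimulatory G protein subunit, whose locus makes several transcripts of differing parental origin, rose 3.12-fold. Ndn, necdin, a growth suppressor of neurons, rose 3.02-fold, and Pon2, a paraoxonase, rose 2.32-fold. Zdbf2, a paternally expressed zinc finger gene, fell 3.74-fold, from values of 9.10, 8.79 and 8.90 in control to 7.57, 6.93 and 6.58. Ppp1r9a, neurabin, a regulator of protein phosphatase and actin, fell 2.46-fold.

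The genes were also viewed by imprinted cluster. The Kcnq1 cluster on chromosome 7 holds Phlda2 and is governed by the control region from which the long RNA Kcnq1ot1 is transcribed. Of its 11 listed genes 9 were measured, 3 rose, 1 fell and 5 did not pass, a called share close to the 43.7% of all genes. Cdkn1c, the cell cycle inhibitor p57, lies close to Phlda2 and is also expressed from the maternal copy. It rose 2.32-fold, from 9.42, 9.97 and 9.77 in control to 11.02, 11.03 and 10.75 (log2 change 1.21, SE 0.19, limma adjusted p = 0.000876), where Phlda2 fell. The change of Cdkn1c exceeded that of Phlda2 by 2.90 on the log2 scale (SE 0.20), and by 2.55, 3.07 and 3.09 on the 3 shEp400 arrays (exact permutation p = 0.1, the smallest possible). That p could not have been larger, since each gene already separated the groups, in opposite directions, and it adds nothing to their calls. Slc22a18, which lies between them, had a log2 change of -0.03, Nap1l4, on the other side of Phlda2, of -0.12, and Kcnq1ot1, detected on 1 of 3 control arrays, of 0.10, none of them called. The tetraspanin gene Cd81, at the far side of the cluster, rose 1.56-fold (limma adjusted p = 0.0169) and the remaining rise was that of Osbpl5, with the limit given above. Tssc4 and Ascl2, the latter not detected on every array, had log2 changes of -0.16 each. The genes of the clusters that the rule did not name were named after their values were seen.

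In the Dlk1-Dio3 cluster on chromosome 12, 4 of 6 listed genes were measured, of which 2 rose and 1 fell. Over all genes, 20.6% rose and 23.1% fell. Dlk1 and Dio3, at its ends and both expressed from the paternal copy, rose. Rtl1, a retrotransposon-derived gene of the paternal copy, fell by 0.59 on the log2 scale (limma adjusted p = 0.0388) but was detected on 1 of 3 shEp400 arrays, so its shEp400 level is mostly not above background and its difference from Dlk1 is not given. The maternally expressed noncoding RNA Rian had values of 6.64, 6.46 and 6.35 in control and 5.35, 4.60 and 6.87 in shEp400 cells, which overlapped (log2 change -0.88, SE 0.45, adjusted p = 0.142). Meg3, the noncoding RNA that distinguishes ES cell lines with an active cluster, had 3 probes, none detected on any array.

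In the Snrpn cluster on chromosome 7, 6 of 8 listed genes were measured. Only Ndn rose among the 6 and 0 fell, where 20.6% of all genes rose and 23.1% fell. Ndn went to 10.61, 10.90 and 11.18 in shEp400 cells from 9.34, 9.18 and 9.40 in control (limma adjusted p = 0.000188). The paternally expressed Magel2 and Mkrn3 had log2 changes of 0.12 and -0.53, and Ube3a and Atp10a, expressed from the maternal copy in some tissues, -0.34 and -0.17, with no call. Magel2, Ube3a and Atp10a were each not detected on at least 1 array. Copg2, which overlaps Mest and is expressed mainly from the maternal copy, had a log2 change of -0.14 (adjusted p = 0.559). Peg10, a retrotransposon-derived gene needed for the placenta, rose 1.39-fold (adjusted p = 0.0426), a call that 8 of the 16 other settings ended, among them no background correction (adjusted p = 0.0626) and the removal of any single array other than shEp400 replicate 3. Sgce and Nnat were detected on 0 arrays.

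Factors that keep imprints through cell division were lower in 5 of 9 measured cases, and 1 rose, of 13 listed, where 23.1% of all genes fell and 20.6% rose. Of the 5 falls, those of Ctcf and Smchd1 were lost under some settings. The maintenance methyltransferase Dnmt1 fell 2.03-fold, from 10.23, 9.90 and 9.96 to 9.33, 8.94 and 8.76 (limma adjusted p = 0.00245), and its partner Uhrf1, which recruits it to newly copied DNA, fell 2.26-fold (limma adjusted p = 0.000945). The nucleosome remodelling subunit Mbd3 fell 1.75-fold. Ctcf, which insulates Igf2 from its enhancers on the maternal copy, fell 1.46-fold (adjusted p = 0.0189), a call lost with cyclic loess (adjusted p = 0.0668) and without control replicate 3 or shEp400 replicate 2. Smchd1, a repressor at imprinted clusters, fell 1.46-fold, which did not pass with cyclic loess, without either of control replicates 1 and 2, or without either of shEp400 replicates 2 and 3. Dppa3, which protects methylation in the early embryo, rose 1.86-fold (adjusted p = 0.0132), a call lost without control replicate 1 (adjusted p = 0.052). Trim28, the corepressor that binds imprinting control regions through Zfp57, had a log2 change of -0.38 and an adjusted p of 0.118. It passed without background correction (adjusted p = 0.0489) and in the deposited matrix (0.0491), which gave nearly the same value. Trim28 also passed with 75th percentile scaling (log2 change -0.70, adjusted p = 0.0172). Setdb1 had a log2 change of -0.13 and Arid4b, detected on 2 of 3 arrays of each group, of -0.17. Zfp57 carried no named probe, and Zfp445, Hells and Arid4a were below the detection filter. The ES cell markers on the same arrays fell in 8 of 12 cases, as given above, and their part was not tested.

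The promoter windows of the imprinted genes were searched for 3 motifs on both strands. RefSeq gave 18 windows for 9 of the 10 genes, some overlapping, and none for H19. The letters TGCCGC, bound by Zfp57 when methylated, were in 6 of 18 windows (33.3%), those of Grb10, Igf2, Mest, Plagl1 and Snrpn, against 11.6% of all 32851 windows. They were in 0 windows of Dlk1, Igf2r and Phlda2, and the Igf2 window that holds them, with 14 CG dinucleotides, is not printed. Of the 6 windows, 2 are Mest windows that overlap almost fully and hold the same sites. TGCCGC itself holds a CG, and the windows with a match hold 7 to 45 CG dinucleotides, against a median of 7. The share over all windows was not matched for CG count. The letters GGGGCCCC, bound by Plagl1, were in 1 window, that of Peg3, against 1.08% of all windows, and TATAAA was in 2 windows, of Phlda2 and Snrpn. None of these motifs contains another. A match is a description of these windows only.

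**Figure D4:**
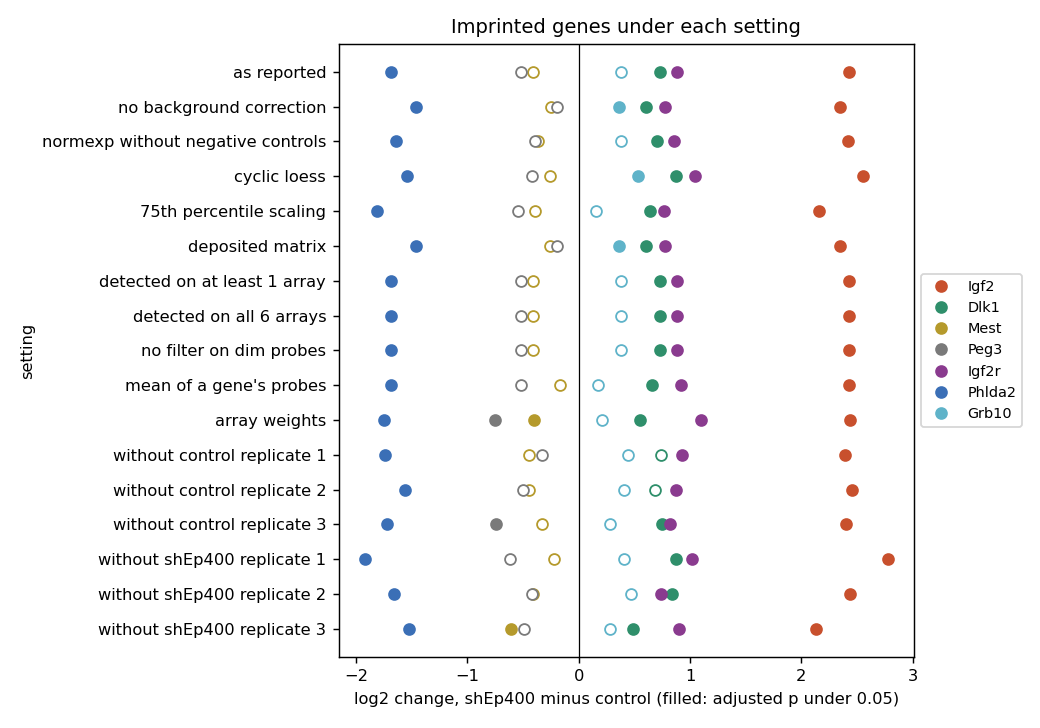
Log2 change (shEp400 minus control) of the 7 measured imprinted genes as reported and under each of the 16 other settings; filled points passed the test at adjusted p under 0.05. Igf2 lies between 2.13 and 2.78 and Phlda2 between -1.92 and -1.46 under the other settings, while Dlk1 is an open point without control replicate 1 or 2.

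The directions of the 7 genes did not change under any of the 16 other settings, and the calls of Igf2, Igf2r and Phlda2 held in all 16. The 3 other detection filters left the log2 changes of these genes as they were, so they could alter the adjusted p only. The mean of a gene's probes was likewise the same value for Igf2, Phlda2 and Peg3. The log2 change of Igf2r lay between 0.74 and 1.10 and that of Dlk1 between 0.48 and 0.88. Of the called genes over all 9736, 47.2% were higher, against 59.4% with cyclic loess and 39.1% with 75th percentile scaling. These scalings moved the median of all genes to 0.05 and -0.17.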

How the data were processed

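Signal intensities of 45281 probes on 6 arrays, with detection p-values per the file headers, were used as the authors deposited them, on a linear scale and not scaled between arrays. Each detection p-value column was paired with the signal column before it, whose ranks it mirrored (rank correlation of size 0.975 or more, and 0.807 or less with other arrays). The submitters' processing notes name GenomeStudio, with no version or settings. The deposited matrix of intensities, linear, uncentred and with a median of 114 on every array, served as an alternative. It ranked the probes of an array as its signals did. Its log2 changes were close to those without background correction (2.35 for Igf2 in both), so these settings are not independent of each other.

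The platform annotation gave 1 symbol to 34885 probes. Values were background-corrected, offset by 16, quantile-normalized and log2-transformed with neqc in limma 3.58.1 (R 4.3.3). Genes were represented by their brightest probe among those detected at p under 0.01 on at least 3 arrays. Groups were compared with lmFit and eBayes, two-sided, with Benjamini-Hochberg adjustment over 9736 genes at 0.05, with 4 residual degrees of freedom. The number of arrays limits the precision. Probes of a gene were also tested in a fit over 14238 probes. Summed signals are sums of the linear normalized values, offset included. The steps were tested on simulated data. No p is given for a list. The 16 alternatives were no background correction, normexp without negative controls, cyclic loess, 75th percentile scaling, the deposited matrix, 3 other detection filters, the mean of a gene's probes, array weights and leaving out each array in turn.

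The genes, lists and pairs were chosen with earlier results of these data known. Named were the 10 imprinted genes, Ep400, other imprinted genes called at 2-fold or more, the cluster neighbours Cdkn1c, Meg3, Peg10, Sgce, Ndn, Gnas, Nnat and Copg2, the imprint maintenance and Igf2 partner genes, the defining feeder markers and the 3 genes nearest to Igf2. The nearest genes planned for H19 could not be found, since no probe carried its symbol. Promoters are RefSeq's (GRCm38.p6).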

Additional observations from a re-analysis of the deposited data

How the results depend on the processing

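Of 39 named genes tested under 16 other settings, 24 kept direction and side of the threshold wherever they were measured. Among these settings, the other detection filters reused the same normalized values. Calls were lost under at least 1 setting for 8 and gained for 5. Direction turned for 2 genes that were never called: Setdb1 (log2 change 0.017 with cyclic loess, and -0.22 to 0.0067 leaving out an array) and Arid4b (-0.48 to 0.13 leaving out an array). Array weights called the most imprinted genes, 6 of the 7 (3 of them higher, against 3 of 4) and 21 of the 32 others (52.4% higher, against 78.6%), but it also called 5844 of all 9736 genes. With 75th percentile scaling 62.5% of the called others were higher. Leaving out an array gave 3 to 5 called genes of the 7, 11 to 15 of the others and 3000 to 4199 over all genes, against 4251 with all arrays. No paired analysis was possible because the labels give no replicate numbers. Signals close to background limit Peg3 and Plagl1, and Osbpl5, Rtl1, Rian, Kcnq1ot1, Ube3a, Magel2, Ascl2, Atp10a, Arid4b and Col1a2, each not detected on at least 1 array. The same holds for the markers Col6a2, Sox17, Sox7, Hnf4a and Krt7.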
